A study of Mus musculus with 6 samples.

Results

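The genes described here are 10 protein-coding neighbours of Arid3b on mouse chromosome 9, Mpi, Scamp2, Ulk3, Cplx3, Csk, Cyp1a1, Edc3, Clk3, Ubl7 and Cyp11a1, out of 20021 genes named on the array. The rule for choosing them was position close to Arid3b. The RNA came from embryonic day 9.5 mice, from a dissection of the head with its first branchial arch. The groups were 3 samples from Arid3b-null embryos and 3 samples from wild type embryos, each a pool of 4 embryos on an Agilent array of its own, read in 1 colour. How the null allele was made, which strain carries it and whether the pools came from separate litters are not stated in the labels, so a p-value here measures how far such pools spread, which may be technical. The comparison asks whether genes beside the targeted one differ in signal between heads without and with Arid3b.

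Arid3b encodes a transcription factor whose ARID domain binds AT-rich DNA. Its neighbours belong to unrelated pathways. Clk3 is a kinase of splicing factors rich in serine and arginine, and Edc3 helps to remove the cap from messenger RNA before decay. Csk switches off kinases of the Src family, and Ulk3 is a kinase related to the autophagy kinase Ulk1 that also acts on Gli factors of the Hedgehog pathway. Scamp2 is a membrane protein of secretory carriers, Cplx3 a complexin that controls vesicle fusion at retinal synapses, and Mpi the enzyme that interconverts phosphates of fructose and mannose ahead of glycosylation. Ubl7 has a ubiquitin-like domain. Cyp1a1 is a cytochrome P450 switched on by the aryl hydrocarbon receptor. Cyp11a1 cuts the side chain of cholesterol, the first step of steroid synthesis, and in mouse pregnancy it is made in trophoblast giant cells and decidua.

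In a RefSeq table of the assembly GRCm38, used here for names and gene order, the neighbours ran in the order Mpi, Scamp2, Ulk3, Cplx3, Csk, Cyp1a1, Edc3, Clk3, Arid3b, Ubl7 and Cyp11a1. Mpi lay 10 gene positions before Arid3b, Clk3 and Ubl7 directly beside it, and Cyp11a1 3 positions after it. Lman1l, Cyp1a2 and Sema7a lie between them. All 10 genes had a probe, 11 probes in all, because Ulk3 had a pair. Values are log2 of the processed signal relative to the 75th percentile of the same array, so a value of 0 means a signal at that percentile. A probe was tested if the scanner software called it well above background on each of the 3 arrays of either group, which held for 9 probes of 8 of the genes. Cyp1a1 and Cyp11a1 were not tested. A gene was counted by its brightest tested probe.

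Signals at the 75th percentile lay between 626 and 977, with 67.9% to 70.3% of spots well above background and none saturated. Each slide held the Arid3b-null and the wild type array of 1 replicate number, with null arrays always in position 2 and wild type arrays in position 1. Array position and genotype therefore cannot be told apart. All 13 head markers reported here were well above background on all 6 arrays, and summed to 35.3 to 37.7 times the 75th percentile on null arrays and 27.0 to 29.5 times on wild type arrays. A linear sum follows the brightest genes, here Otx2 (4.48, 4.57 and 4.29 on null arrays, 4.01, 3.96 and 3.64 on wild type arrays). Of the 13 markers, 6 passed in limma, 46.2% against 19.7% of all tested genes. Lhx8, Barx1, Dlx1, Dlx2 and Prrx1 were lower in null heads (8.90-fold to 1.80-fold) and Wnt1 was higher (2.50-fold). Markers of blood summed to 420 to 852 times the 75th percentile on null arrays and 533 to 736 times on wild type arrays, heart markers to 1.84 to 2.07 and 1.28 to 3.62 times, and trunk markers to 0.212 to 0.248 and 0.0905 to 0.187 times. The head and trunk sums did not overlap between genotypes. Of 4 tested trunk markers, T and Hoxb8 were higher in null heads (2.91-fold and 10.2-fold, limma adjusted p of 0.0141 and 0.0194). Hoxb8 gave -8.39 on wild type replicate 1, where the lowest spot well above background gave -6.87. T gave -6.44 on wild type replicate 2, where that limit was -6.23. Both folds therefore rest in part on wild type signals near background. Hoxa7 and Hoxa9, also tested, lay at log2 differences of -0.16 and -0.27 and did not pass. Hoxc8, Hoxc9 and Hoxd9 were on no array well above background. The part of these tissues in the differences below was not tested. Liver and gut markers summed to 0.138 times on null replicate 2 and 0.179 times on wild type replicate 2, against 0.0116 to 0.0180 times on the other 4 arrays. Of the liver and gut markers, Alb, Ttr, Apoa1 and Hnf4a were on no array well above background. A pair of arrays stood apart, null replicate 1 and wild type replicate 2. On both, 11 placental prolactin genes summed to 23.1 and 61.7 times the 75th percentile, against 0.280 to 1.13 times on the other 4 arrays. In a dissected head, fewer cells of a type and less RNA per cell cannot be told apart.

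Arid3b itself was lower on every null array than on any wild type array with each of its 3 probes. The brightest gave 1.27, 1.06 and 1.44 on null arrays, against 1.98, 2.26 and 3.09 on wild type arrays. It fell by 1.19 ± 0.29 on the log2 scale (SE, limma, n = 3 per group), to 43.9% of the wild type signal, with an adjusted p of 0.0332. Another probe gave -5.43, -5.24 and -5.51 on null arrays and -3.14, -3.19 and -2.86 on wild type arrays, 5.02-fold lower, with a limma adjusted p of 7.59e-04. The third was 2.59-fold lower, with a limma adjusted p of 0.0224. Leaving out any 1 null array ended the brightest probe's call (limma adjusted p of 0.0831 to 0.103), as did leaving out wild type replicate 2 (0.0609), quantile normalization (0.0569), normexp background correction (0.0531), the authors' deposited values (0.0518) and no filter on dim probes (0.0835). Which part of the gene the null allele alters, and where these probes lie in it, is not stated in the files.

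None of the 8 tested neighbours passed the limma test at an adjusted p under 0.05 with its brightest probe, in a comparison where 19.7% of all 14906 tested genes did, 10.5% higher and 9.21% lower in null heads. At an unadjusted p under 0.05, 1 of the 8 passed, against 35.5% of all tested genes. The null and wild type arrays did not overlap for 1 of the 8, Mpi, against 42.4% of all tested genes. By single probes 1 of 9 passed, the dimmer probe of Ulk3, against 18.0% of all 26288 tested probes, with 9.38% higher and 8.58% lower. The differences of the 8 genes ran from -0.44 to 0.35 on the log2 scale, with a median of -0.02, and over all tested genes the median was -0.04. A p above the threshold does not show that a gene is unaffected, so the interval of each difference is given below.

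**Figure D1:**
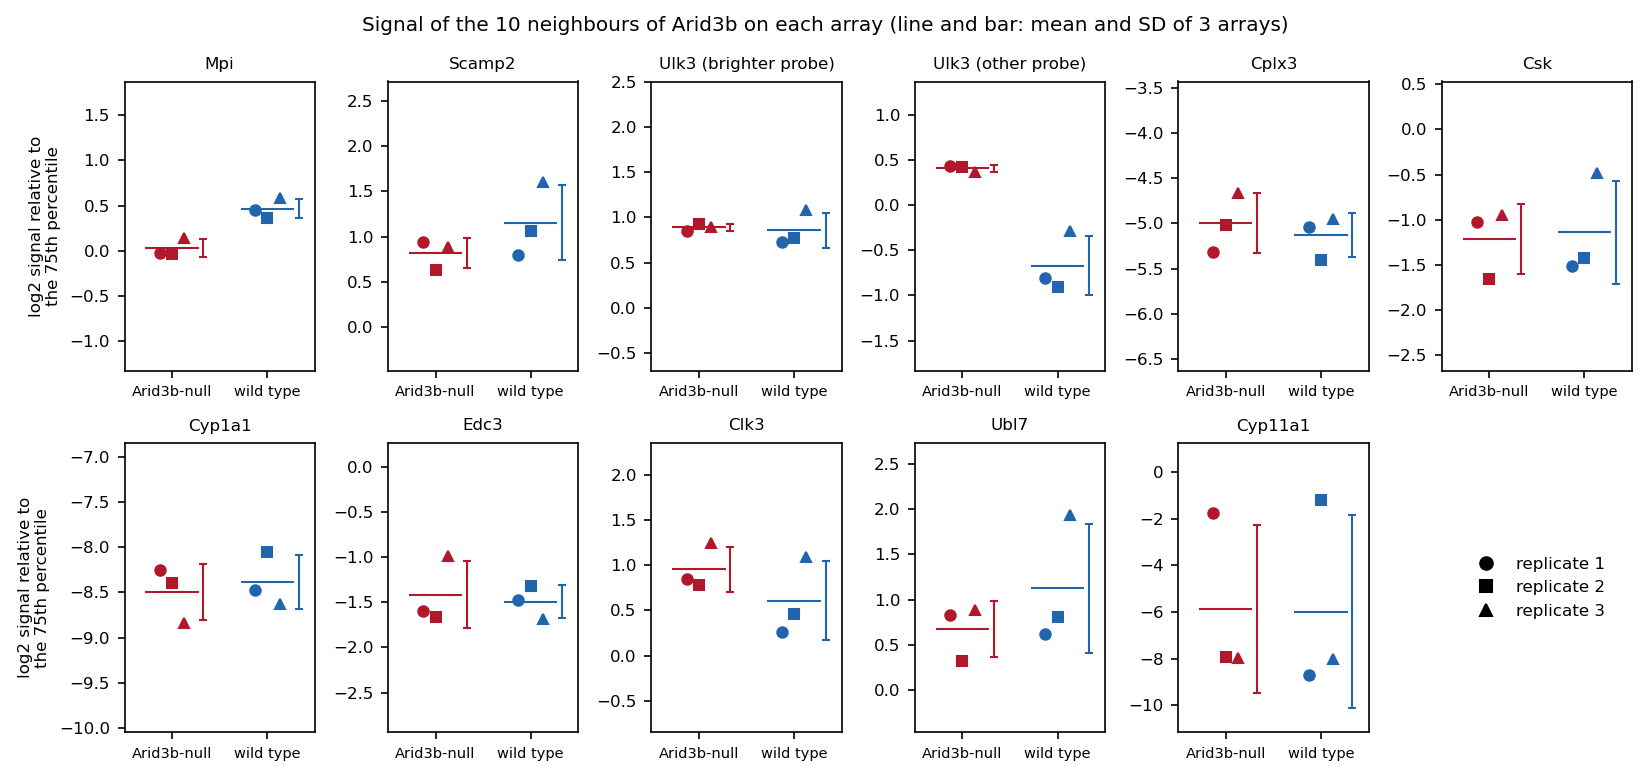
Signal of the 10 neighbours of Arid3b on each array, in log2 units relative to the 75th percentile of the array, for Arid3b-null (red, left) and wild type (blue, right) heads. Points are arrays, lines means and bars SDs of 3 arrays. Each panel has its own range, wider for Cyp11a1. The groups are apart for Mpi and for the dimmer Ulk3 probe and overlap in the other panels, and Cyp11a1 is high on 1 array of each group.

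Clk3, the gene directly before Arid3b, gave 0.85, 0.78 and 1.24 on null arrays, against 0.26, 0.46 and 1.10 on wild type arrays. The groups overlapped through wild type replicate 3. The log2 difference was 0.35 ± 0.25, with a 95% interval of -0.24 to 0.95 and a limma adjusted p of 0.378, and it was 0.59, 0.32 and 0.14 within slides 1, 2 and 3. Ubl7, directly after Arid3b, gave 0.83, 0.32 and 0.89 on null arrays, against 0.62, 0.81 and 1.94 on wild type arrays. Only wild type replicate 3 lay above all null arrays. Its log2 difference was -0.44 ± 0.36 (interval -1.29 to 0.40, limma adjusted p of 0.435), and within slides 0.21, -0.48 and -1.05. Neither of the 2 genes that flank Arid3b passed, and both values moved with wild type replicate 3, without which they were 0.60 for Clk3 and -0.04 for Ubl7. Edc3, the next gene beyond Clk3, gave -1.59, -1.66 and -0.99 on null arrays, against -1.47, -1.32 and -1.69 on wild type arrays. Its groups overlapped, at a log2 difference of 0.08 ± 0.22 with an interval of -0.44 to 0.60 and a limma adjusted p of 0.839.

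Among the kinases, Csk gave -1.03, -1.66 and -0.95 on null arrays, against -1.51, -1.43 and -0.49 on wild type arrays. The groups overlapped, and the log2 difference of -0.07 ± 0.32 had an interval of -0.83 to 0.69 (limma adjusted p of 0.904). Ulk3 was measured by a pair of probes that the files give under the same transcript accession, and they did not match. The brighter gave 0.85, 0.93 and 0.89 on null arrays, against 0.72, 0.77 and 1.08 on wild type arrays, a log2 difference of 0.03 ± 0.15 with an interval of -0.33 to 0.40 and a limma adjusted p of 0.904. The dimmer gave 0.44, 0.42 and 0.36 on null arrays, against -0.81, -0.91 and -0.29 on wild type arrays. On this probe all null arrays were above all wild type arrays and close to each other. It was 2.11-fold higher in null heads (log2 difference 1.07 ± 0.19, interval 0.62 to 1.53, limma adjusted p of 0.0119), and 1.25, 1.32 and 0.65 within slides 1, 2 and 3.

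The log2 differences of the Ulk3 probes lay 1.04 apart. A gap of at least 1 between the highest and the lowest probe was found for 6.16% of the 3961 genes with 2 or more tested probes, whose median gap was 0.25. Some probes passed and others did not for 20.6% of those genes, and a brightest probe that did not pass stood beside another that did for 10.2%. The call of the dimmer Ulk3 probe was lost without null replicate 1 (limma adjusted p of 0.0554) and without both null replicate 1 and wild type replicate 2 (log2 difference 0.94, adjusted p of 0.139). The scanner files give neither the position nor the sequence of the probes, so which part of the Ulk3 transcript differs was not tested.

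Mpi was the neighbour whose groups lay apart with its brightest, and only, probe. It gave -0.02, -0.04 and 0.14 on null arrays, against 0.45, 0.36 and 0.58 on wild type arrays. The difference was -0.44 ± 0.14 (interval -0.78 to -0.10), or 73.9% of the wild type signal, and was -0.47, -0.40 and -0.44 within slides 1, 2 and 3. With an unadjusted p of 0.0184 and a limma adjusted p of 0.0781 it did not pass. Mpi passed with normexp background correction (log2 difference -0.41, adjusted p of 0.0294), with array weights (-0.37, 0.00942) and when probes were averaged to 1 row per gene (0.0492). Array weights called 14358 of all 26288 tested probes.

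Of the genes of membrane traffic, Scamp2 gave 0.94, 0.63 and 0.89 on null arrays, against 0.80, 1.06 and 1.61 on wild type arrays. Wild type replicate 3 was the highest, and the others overlapped. The log2 difference was -0.34 ± 0.23, with an interval of -0.88 to 0.21 and a limma adjusted p of 0.354, and was -0.11 without wild type replicate 3. Cplx3 was dim but well above background on all arrays, at -5.32, -5.02 and -4.66 on null arrays and -5.03, -5.40 and -4.95 on wild type arrays. Its groups overlapped, with a log2 difference of 0.13 ± 0.22, an interval of -0.39 to 0.65 and a limma adjusted p of 0.726. Across the 8 tested neighbours, wild type replicate 3 was the highest array for 5 genes and null replicate 3 for 3, and no other array was. Over all genes these arrays were the highest for 19.2% and 13.8%. The part of slide 3 in the differences was not tested beyond the values within slides and without each array, and without wild type replicate 3 none of the 8 genes passed either.

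Cyp1a1 was not well above background on any array, at -8.25, -8.39 and -8.84 on null arrays and -8.47, -8.05 and -8.63 on wild type arrays. It was therefore not tested. Its neighbour Cyp1a2, the related liver enzyme, was likewise not well above background on any array. Among genes of the same pathway the receptor gene Ahr was measured well, at -0.61, -0.48 and -0.86 on null arrays against -1.92, -1.85 and -2.16 on wild type arrays. Ahr rose 2.50-fold (log2 difference 1.32 ± 0.17, limma adjusted p of 0.00428), the 1 call among 8 tested genes of a list of 9 that holds the receptor, its partners and its targets. That is 12.5% of the tested genes of the list, against 19.7% of all tested genes. Among the settings tried, Ahr lost that call only when null replicate 1 and wild type replicate 2 were both left out (0.0560). The targets Cyp1b1 (log2 difference 0.02 ± 0.15) and Tiparp (0.07 ± 0.26) and the partner Arnt (0.11 ± 0.16) did not pass.

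Cyp11a1 was high on 1 array of each genotype. It gave -1.74, -7.93 and -7.95 on null arrays, against -8.71, -1.21 and -8.02 on wild type arrays, and was well above background only on null replicate 1 and wild type replicate 2. Each of these was at least 33.9-fold above the other 4 arrays, set against the lowest signal among spots well above background there. The arrays lie on different slides, so the difference within slides was 6.97, -6.72 and 0.07. Means over a group, -5.87 ± 3.58 for null and -5.98 ± 4.14 for wild type (SD, n = 3), describe no array.

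The same arrays carried placental genes. Prl3d1, which encodes placental lactogen of trophoblast giant cells, gave 2.74, -3.50 and -3.58 on null arrays, against -4.26, 4.13 and -4.17 on wild type arrays. Psg22, a pregnancy-specific glycoprotein gene of giant cells, gave -2.38, -5.94 and -6.59 on null arrays, against -6.41, -2.38 and -6.24 on wild type arrays. Over the 6 arrays the genes most like Cyp11a1 were Prl2c5 (Pearson r of 0.996), Prl3d1 (0.996), Prl2c1 (0.994) and Psg22 (0.993), among named genes well above background on both arrays. Next, and almost level with Psg22, came Pkdrej (0.992) and Plcz1 (0.991), which are not in the placental gene list below. Prl2c genes are near-identical copies whose probes may not tell them apart. These correlations rest on a pair of arrays against 4, are given as a description, and were computed after the values of Cyp11a1 were seen. On 50 probes both arrays lay at least 2 log2 units above every other array; each of the other 8 pairs of a null and a wild type array had 0 to 12 such probes. In a list of 19 placental genes, also chosen after the values were seen, both arrays were above all others for 10. The 1 call in that list, 9.09% of its tested genes against 19.7% of all, did not follow these arrays. Prl3b1, another placental lactogen gene, gave -3.33, -3.97 and -4.01 on null arrays, against -1.90, -0.44 and -2.51 on wild type arrays (4.45-fold lower, limma adjusted p of 0.0288). Hand1, a transcription factor gene of giant cells and of heart and branchial arch, had groups that did not overlap either, with null arrays below, but did not pass (limma adjusted p of 0.0804). Tpbpa, of the spongiotrophoblast, Ctsq and Prl5a1 were on no array well above background, and Prl4a1 was high on wild type replicate 2 alone, at 3.80. The part of placental RNA in the Cyp11a1 signal was not tested.

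**Figure D2:**
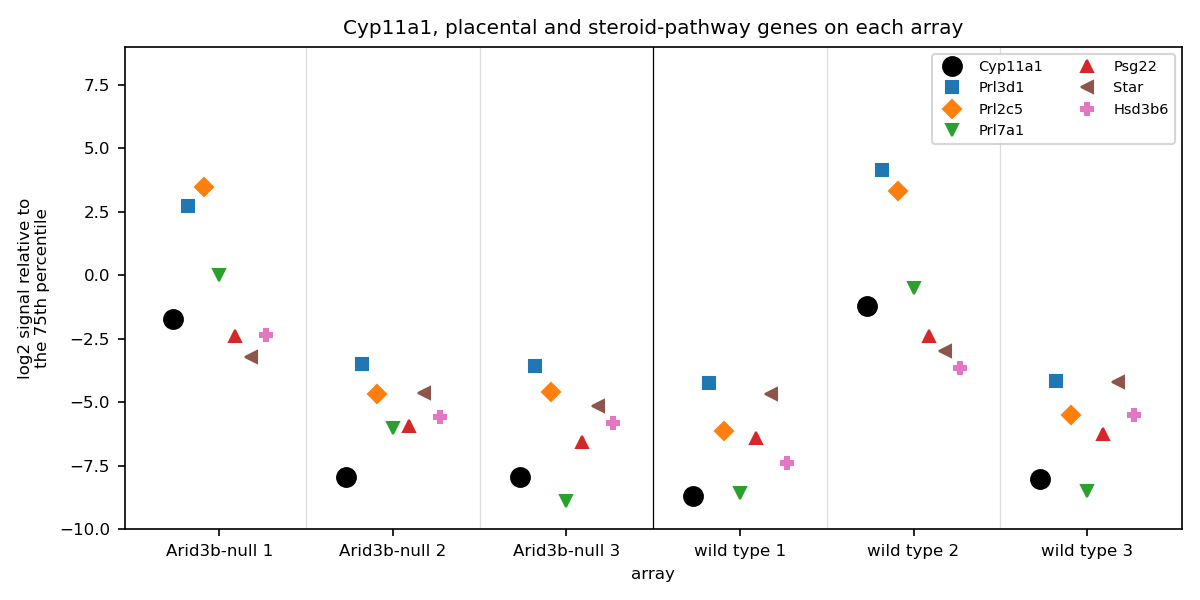
Signal of Cyp11a1 and of 6 placental or steroid-pathway genes on each array, in log2 units relative to the 75th percentile, with the 3 Arid3b-null arrays left of the 3 wild type arrays. Null replicate 1 and wild type replicate 2 hold the 2 highest values of each gene shown, with Cyp11a1 at -1.74 and -1.21. The 6 genes were picked after their values were seen. Others of the same lists, among them Prl8a2, Nr5a1 and Fdxr, did not follow these arrays and are not drawn.

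Steroid genes were read beside Cyp11a1 from a list of 12, of which 8 were tested and none passed in limma, nor at an unadjusted p under 0.05. Over all tested genes, 19.7% and 35.5% did. Star, which moves cholesterol into mitochondria, gave -3.21, -4.65 and -5.13 on null arrays, against -4.68, -2.97 and -4.22 on wild type arrays. Hsd3b6, an enzyme that acts on the product of Cyp11a1, gave -2.37, -5.59 and -5.82 on null arrays, against -7.39, -3.67 and -5.51 on wild type arrays. Both were highest on the arrays with high Cyp11a1. Fdxr, the reductase that feeds electrons to Cyp11a1, varied less, at 1.73, 1.71 and 1.85 on null arrays and 1.34, 1.66 and 1.26 on wild type arrays. Nr5a1, a regulator of steroid genes, gave -2.78, -2.92 and -3.21 on null arrays, against -2.47, -2.81 and -2.48 on wild type arrays, and was not high on either array.

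The promoters of Cyp11a1 and Prl3d1 are shown because their signals moved together across arrays, and that of Cyp1a1 because the gene was on no array well above background. Each is the stretch of 250 bases before a transcription start in RefSeq, build GRCm38.p6, written 5′ to 3′ on the strand of the gene. Capitals mark AGGTCA, the core bound by nuclear receptors such as Nr5a1, in the first pair, and GCGTG, the core bound by the aryl hydrocarbon receptor, in Cyp1a1. Both were searched on both strands, and no matches overlapped. AGATAA and ATTAA were counted too, are not marked, and were held by 9.99% and 24.9% of 32851 promoters. Of the stretches shown, that of Cyp11a1 held 1 ATTAA and that of Cyp1a1 1 AGATAA.
Cyp11a1, chr9:58014702-58014951, plus strand: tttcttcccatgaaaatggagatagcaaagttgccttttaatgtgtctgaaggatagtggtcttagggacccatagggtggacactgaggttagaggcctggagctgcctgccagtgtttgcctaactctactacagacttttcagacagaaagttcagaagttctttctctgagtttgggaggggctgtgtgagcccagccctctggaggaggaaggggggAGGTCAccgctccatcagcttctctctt
Prl3d1, chr13:27093939-27094188, plus strand: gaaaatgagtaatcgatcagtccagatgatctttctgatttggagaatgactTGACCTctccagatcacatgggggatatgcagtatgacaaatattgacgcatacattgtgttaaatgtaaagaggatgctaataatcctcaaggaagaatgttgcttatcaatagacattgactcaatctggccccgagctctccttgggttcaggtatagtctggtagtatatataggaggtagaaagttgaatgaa
Cyp1a1, chr9:57697363-57697612, plus strand: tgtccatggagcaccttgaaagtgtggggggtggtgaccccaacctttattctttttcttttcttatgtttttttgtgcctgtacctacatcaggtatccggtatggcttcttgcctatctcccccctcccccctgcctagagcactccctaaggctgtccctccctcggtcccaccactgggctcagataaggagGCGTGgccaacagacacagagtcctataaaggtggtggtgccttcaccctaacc
The Cyp11a1 stretch held 1 AGGTCA, beginning 28 bases before the start, and the Prl3d1 stretch held 1 match, 198 bases before it. The Cyp11a1 match is read on the strand shown, and the Prl3d1 match on the opposite strand, so it is printed as its reverse complement. A second start that RefSeq gives for Cyp11a1 had none. The same stretches of Prl2c5 and Hsd3b6, also highest on null replicate 1 and wild type replicate 2, held no AGGTCA either. Among the 32851 promoters of the table, 14.0% held AGGTCA in the same 250 bases. The Cyp1a1 stretch held 1 GCGTG, 54 bases before the start, as did 28.2% of all promoters. Of the other neighbours, Scamp2, Clk3, Ubl7 and 1 of 2 starts of Csk held GCGTG, and Cplx3 held AGGTCA. A match is a run of letters and not a measured site.

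Genes farther along the chromosome were read in the same way. Within 10 gene positions on each side of Arid3b there were 20 genes, of which 17 were tested and 4 passed in limma, 23.5% against 19.7% of all tested genes. All 4 were higher in null heads, and none is one of the 10 neighbours. They lie 4 to 8 positions after Arid3b, beyond Cyp11a1. On the side of Mpi to Clk3 none of 8 tested genes passed in limma, and 1 did at an unadjusted p under 0.05. On the side of Ubl7 to Loxl1 4 of 9 passed. The difference between the sides was not tested.

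Ccdc33, a coiled-coil gene, gave -4.93, -4.57 and -4.15 on null arrays, against -5.82, -5.84 and -5.71 on wild type arrays, where it was well above background on 2 of 3. It was 2.36-fold higher (log2 difference 1.24 ± 0.21, limma adjusted p of 0.0105) but 0.35 (0.0835) with normexp, which ended the call. Ccdc33 entered the test through its null arrays. A dimmer, untested probe was well above background on 1 wild type array only. That probe gave -8.62, -7.64 and -9.02 on null arrays, against -7.51, -5.47 and -7.36 on wild type arrays. Islr, an immunoglobulin and leucine-rich repeat gene of mesenchyme, gave -1.26, -1.17 and -0.85 on null arrays, against -2.35, -2.50 and -2.03 on wild type arrays. It was 2.30-fold higher (log2 difference 1.20 ± 0.19, limma adjusted p of 0.00794), and 1.09, 1.33 and 1.18 within slides. Islr2, its relative in developing neurons, gave 1.38, 1.18 and 1.04 on null arrays, against 0.23, 0.16 and 0.50 on wild type arrays. It was 1.87-fold higher (log2 difference 0.91 ± 0.17, limma adjusted p of 0.0132). Its call was lost without null replicate 1 (0.0644) and null replicate 2 (0.0516). With the tested probes of these 3 genes, all null arrays lay above all wild type arrays.

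Pml, the gene of nuclear bodies, was 1.54-fold higher with its brightest probe (log2 difference 0.62 ± 0.13, limma adjusted p of 0.0216), while its other probe pointed down at -0.40 ± 0.16 (0.123). The mean of both was 0.11 (adjusted p of 0.541), and the call of the brightest was lost without any 1 of the null arrays (0.0720 to 0.0870) or without wild type replicate 1 or 2 (0.0696 and 0.0625). Stoml1 and Loxl1, a lysyl oxidase of elastic fibres, did not pass, at 0.85 ± 0.25 (limma adjusted p of 0.0593) and 0.51 ± 0.19 (0.109). Stoml1 did pass with slide as a block (0.0267), a trended and robust variance model (0.0428) and array weights (6.97e-04). It also passed with probes averaged (0.0454), adjusting over 1 probe per gene (0.0476) and without wild type replicate 3 (0.0131). Loxl1 passed with array weights (0.00415) and without wild type replicate 3 (0.0217). With array weights, 14358 of all 26288 tested probes were called. Stra6, the retinol receptor gene between Ccdc33 and Islr, was at -0.09 ± 0.19. Sema7a, between Ubl7 and Cyp11a1, was at -0.36 ± 0.23. Lman1l, between Cplx3 and Csk, was at -0.04 ± 0.21 with its brightest probe and fell by 1.39 ± 0.38 (limma adjusted p of 0.0474) with a dimmer one. That dimmer probe was not well above background on 1 of the 3 null arrays.

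**Figure D3:**
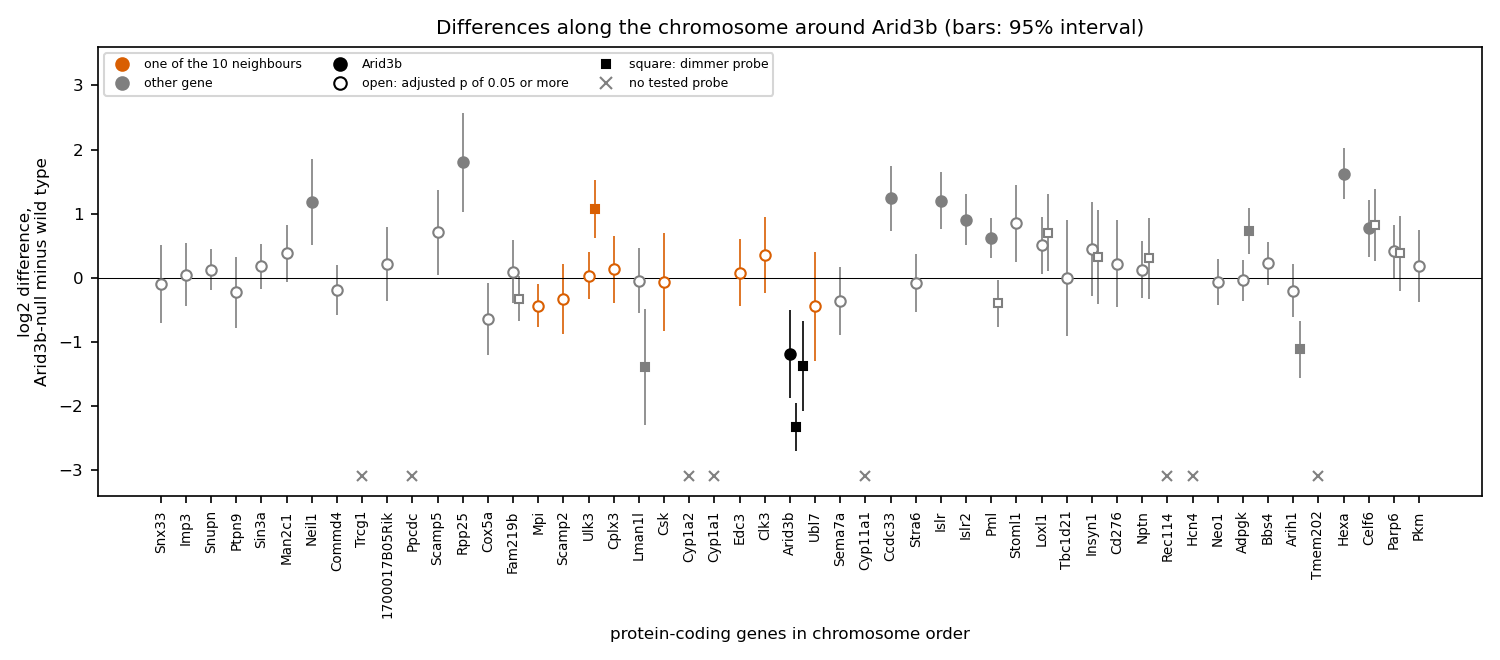
Log2 difference, Arid3b-null minus wild type, of genes within 25 gene positions on each side of Arid3b, in chromosome order, with 95% intervals from limma. Filled points have an adjusted p under 0.05, squares are dimmer probes, and crosses mark genes with no tested probe. Arid3b is low with all 3 probes, the orange neighbours lie between -0.44 and 0.35 except the dimmer Ulk3 probe, and Ccdc33, Islr, Islr2 and Pml are filled above 0.

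Widening the window to 25 gene positions gave 8 of 42 tested genes called by their brightest probe, 19.0%, all higher, and narrowing it to 5 gave 1 of 7, Ccdc33. The other 4 were Neil1, a DNA glycosylase gene (1.18 ± 0.28), Rpp25, a subunit gene of ribonuclease P (1.80 ± 0.33), Hexa, a lysosomal hexosaminidase gene (1.62 ± 0.17), and Celf6, a splicing regulator gene (0.77 ± 0.19). Their limma adjusted p was 0.0309, 0.0125, 0.00236 and 0.0333. Hexa kept its call in every setting tried. The calls of Neil1 and Celf6 were lost without any 1 null array (0.0616 to 0.108), without wild type replicate 2 (0.0723 and 0.0964) and with no filter on dim probes (0.0796 and 0.0875), and that of Neil1 also without wild type replicate 1 (0.0693) and with normexp (log2 difference 0.44, 0.0536). The call of Rpp25 was lost without null replicate 1 (0.0552) or 3 (0.0570). Among dimmer probes beyond 10 positions, that of Arih1, a ubiquitin ligase gene, fell by 1.11 ± 0.19 (limma adjusted p of 0.00976) beside a brighter one at -0.20 ± 0.18, and that of Adpgk, a glucokinase gene, rose by 0.73 ± 0.15 (0.0191). Among 807 tested protein-coding genes of the chromosome, Arid3b left out, 187 were called, or 23.2%, with 101 higher and 86 lower. Without both null replicate 1 and wild type replicate 2, none of the 17 genes within 10 positions was called, at 2 arrays per group, and 795 probes were called in all. At those 2 arrays per group the log2 differences of Ccdc33, Islr, Islr2 and Pml were 1.40, 1.18, 0.75 and 0.67.

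**Figure D4:**
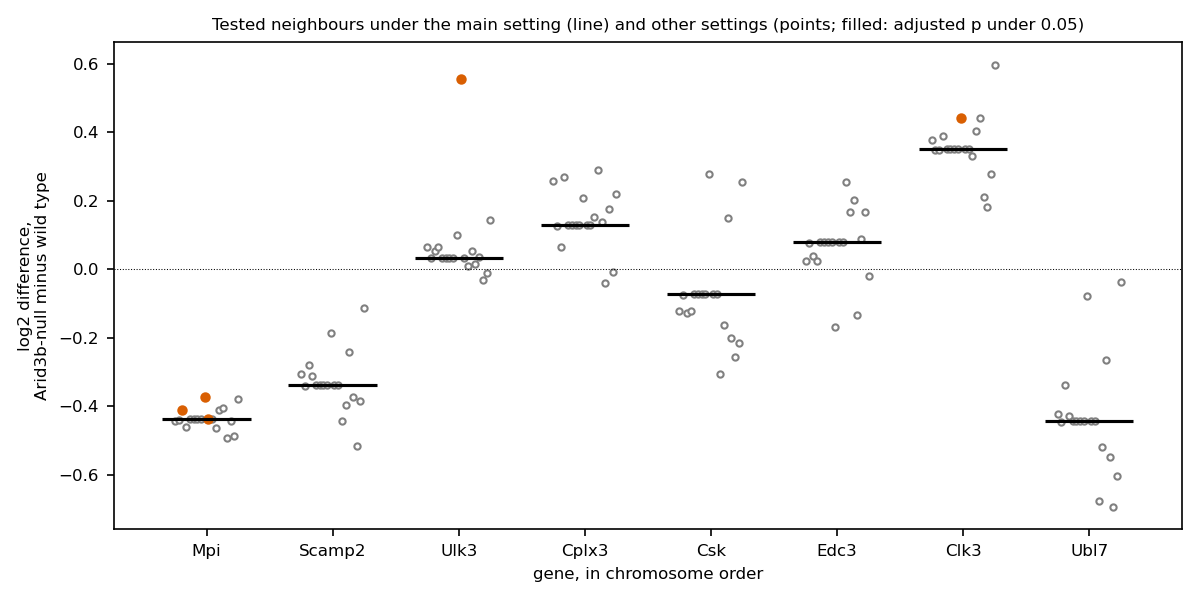
Log2 difference, Arid3b-null minus wild type, of the 8 tested neighbours with their brightest probe (line) and under 18 other settings (points, filled at an adjusted p under 0.05). The filled points are 3 for Mpi, 1 for Ulk3, where the point is the mean of its probes, and 1 for Clk3. The Clk3 point and 1 Mpi point are with array weights, which called 14358 of all 26288 tested probes.

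Genes that act with the neighbours were read from lists made by function. Leaving out both null replicate 1 and wild type replicate 2 ended each call named from these lists, at 2 arrays per group. For Csk, the related kinase gene Matk was the 1 call among 7 tested of 10 genes that held Src family members. Matk gave -0.01, 0.12 and -0.13 on null arrays, against -0.78, -1.01 and -1.11 on wild type arrays, 1.94-fold higher (limma adjusted p of 0.00890). Src was at a log2 difference of 0.06 ± 0.27 and Fyn at 0.26 ± 0.19. For Clk3, Clk1 rose (0.67 ± 0.15, adjusted p of 0.0245), 1 of 5 tested kinases of splicing factors, and Clk2 was at -0.00 ± 0.18. For Edc3, the decapping cofactor Ddx6 fell (-0.66 ± 0.16, 0.0353), 1 of 12 tested genes, and Dcp2, the decapping enzyme, was at -0.17 ± 0.20. For Ulk3, 3 of 11 tested autophagy and Hedgehog genes passed, 27.3% against 19.7% of all tested genes, at a median log2 difference of 0.01 against -0.04. Ulk1 fell (-0.68 ± 0.16, limma adjusted p of 0.0295), and Ulk2 and Ulk4 rose (0.56 ± 0.14 and 0.63 ± 0.15, 0.0339 and 0.0323). With slide as a block the calls of Ulk1, Ulk2, Ulk4 and Ddx6 were lost (0.0601, 0.0607, 0.0633 and 0.0526), and that of Ulk1 also with quantile normalization (0.0832). The calls of these 4 genes and of Clk1 were each lost without any 1 array other than wild type replicate 3.

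For Mpi, 3 of 13 tested genes of mannose supply passed, 23.1% against 19.7% of all tested genes, at a median log2 difference of 0.03 against -0.04. Gpi1, which makes the fructose phosphate that Mpi uses and also serves glycolysis, gave 7.08, 7.18 and 7.10 on null arrays, against 6.13, 6.09 and 6.05 on wild type arrays. It was 2.04-fold higher (log2 difference 1.03 ± 0.13, limma adjusted p of 0.00438). Gmppa, a regulator of activated mannose, rose (0.88 ± 0.19, 0.0231) but not without any 1 null array (0.0552 to 0.0862) or wild type replicate 1 or 2 (0.0727 and 0.0743). Dpm2, a subunit of the enzyme that makes the lipid-linked mannose donor, fell (-0.82 ± 0.13, 0.00880), though not without null replicate 1 (0.0511). For Scamp2, Scamp1 rose (0.74 ± 0.14, limma adjusted p of 0.0153), 1 of 4 tested relatives, a call lost without any 1 null array (0.0577 to 0.0641). None of 8 tested complexin and vesicle fusion genes passed in limma, and none at an unadjusted p under 0.05. None of 7 tested ubiquitin-like and ubiquilin genes passed, 3 at an unadjusted p under 0.05. Of 8 tested relatives of Arid3b with the same domain none passed in limma and 1 did at an unadjusted p under 0.05, and Arid3a was at -0.31 ± 0.15. Beside these lists, 19.7% of all tested genes passed in limma and 35.5% had an unadjusted p under 0.05.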

How the data were processed

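Arrays were scanned in 1 colour and quantified by Agilent's Feature Extraction software. Per the file headers, the deposited files hold a background-subtracted, detrended intensity per spot, raw median intensities and flags. A deposited table holds log2 values by the authors for 24181 rows, 24158 of which matched a probe used here, with array medians of 6.76 to 6.77; how it was scaled is not stated in the labels. Control spots and outlier spots were dropped, and repeated spots averaged. RefSeq accessions named 26424 of 39429 probes (GRCm38 table; the files' build is mm9, so the only coordinates printed are those of RefSeq promoters, in GRCm38.p6) and 13005 had no symbol. Log2 signals minus the 75th percentile were tested with limma 3.58.1 (R 4.3.3; lmFit, eBayes, Benjamini-Hochberg) over the 26288 probes that were well above background throughout a group and measured on at least 5 arrays; the number of arrays limits precision. The neighbours, gene lists and tests were chosen with earlier results of these data known. Genes named are the neighbours, genes within 10 positions and, per list, up to 4 with the smallest p; called genes farther out, list genes that did not pass, placental genes and genes like Cyp11a1 were chosen after their values were seen. A marker from the head list is not reported here. Alternatives were normalization, background correction, value table, filters, probe rule, slide block, variance model, array weights, thresholds and leaving out arrays. Normexp used median signals because the files analysed here hold no mean signal. Same-numbered arrays share a slide, and their deviations from group means correlated at -0.19, 0.20 and 0.27. For null and wild type arrays on different slides these correlations ran from -0.51 to 0.47.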

Additional observations from a re-analysis of the deposited data

How the results depend on the processing

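The count of called neighbours, 0 of 8, was 1 with normexp (Mpi), 2 with array weights (Mpi, Clk3), 2 with probes averaged per gene (Mpi, Ulk3) and 1 at an adjusted p under 0.1 (Mpi); it was 0 in the other settings, from 0 to 0 when leaving out 1 array, and 0 with slide (replicate number) as a block. The count within 10 positions, 4, was 9 with array weights, 7 with probes averaged, 0 without both null replicate 1 and wild type replicate 2 (chosen after seeing the data, as was adjusting over 1 probe per gene), 1 within 5 positions, 8 within 25, 5 with the replicate block and 2 to 6 without single arrays (2 without null replicate 1 or 2). Of 26288 tested probes 4720 were called, and 7102 and 1506 at adjusted p under 0.1 and 0.01. Array weights called 14358 of the 26288, so the calls with array weights above stand beside that share. Normexp called 4760 of 26276, and no filter on dim probes 2295 of 39427. The share over all genes with probes averaged is not given here. Probes called were 795 without both arrays and 4342 with the replicate block. Without single arrays, where 1 group keeps 2 arrays, they ran from 1847 (without null replicate 1) to 7622 (without wild type replicate 3). Signs that turned were all of differences that did not pass: Lman1l was 0.0233 with quantile normalization, 0.0218 with normexp, 0.0237 in the deposited table and 0.0168 with array weights, Csk 0.28, Edc3 -0.17 and Stra6 0.0720 with array weights. Leaving out single arrays gave ranges of -0.0320 to 0.145 for Ulk3, -0.0401 to 0.290 for Cplx3, -0.18 to 0.16 for Lman1l, -0.26 to 0.26 for Csk, -0.13 to 0.20 for Edc3 and -0.205 to 0.0560 for Stra6. The cause was not tested. Of 670 results for single probes under other settings, 517 kept direction and call, 119 lost and 16 gained a call and 18 turned sign. Signals near background, as for Cyp1a1, limit what these arrays can show.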
